A study of Mus musculus with 10 samples.

Results

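Cd177 and Cd38 encode proteins of the cell surface, and their transcripts were followed over all libraries, together with the genes that went with them across single cells. They are 2 of 31053 genes listed in the count matrices and were matched on their symbols. The data are single-cell transcriptomes of EpCAM+ cells of the adult mouse lung, sorted for RFP or YFP after Cre recombinase driven by Sftpc, a gene of alveolar type 2 (AT2) cells, had been induced with 3 doses of tamoxifen (0.2 mg per g of body weight). In Sftpc-CreERT2;R26R-Confetti lungs (Confetti) RFP+ and YFP+ cells are both wildtype, with 1 library of each. In Sftpc-CreERT2;Red2Kras lungs (Red2Kras) RFP+ cells are mutant and YFP+ cells are their wildtype neighbours, and each colour has 2 libraries per time point, 4 days and 2 weeks. For Confetti no time is labelled, whereas the study's methods state 2 weeks. Lungs were pooled within a library.

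CD177 is a GPI-anchored protein of the Ly6 and uPAR family, best known from neutrophils, where it binds proteinase 3 (Prtn3), the integrin Mac-1 (Itgam with Itgb2) and PECAM-1. CD38 is an ectoenzyme that consumes NAD and makes cyclic ADP-ribose, a messenger that releases calcium. It is best known from lymphocytes and is also found on endothelium. The enzyme BST-1 (CD157) is its closest relative. The study used CD177 as a surface marker of a mutant cell state that it described on these same libraries, so the presence of Cd177 in RFP+ cells at 2 weeks is not independent evidence here.

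In GENCODE M21 (GRCm38), Cd177 (ENSMUSG00000052212) lies on the minus strand of chromosome 7, from 24743983 to 24760311, with up to 17 exons and no overlapping gene. Cd38 (ENSMUSG00000029084) lies on the plus strand of chromosome 5, from 43868553 to 43912375, with up to 8 exons. It overlaps Gm16014 on the same strand and Gm16015 on the opposite strand. Since both members were found in the same cells, the 250 bases before their RefSeq starts (GRCm38.p6) were read for 10 motifs on both strands, and matches are in capitals below. The Cd177 window is chr7:24760312-24760561 on the minus strand. Of the Cd38 window, chr5:43868559-43868808 on the plus strand, only chr5:43868764-43868793 is shown, because GENCODE places this window in the first exon of Cd38, upstream of the coding sequence.
Cd177: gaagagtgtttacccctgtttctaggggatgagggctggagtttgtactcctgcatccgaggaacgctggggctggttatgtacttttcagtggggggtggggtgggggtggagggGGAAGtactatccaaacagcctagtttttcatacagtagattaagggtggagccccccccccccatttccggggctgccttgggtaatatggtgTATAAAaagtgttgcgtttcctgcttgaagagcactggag
Cd38: gtgggaaaGGAAGcagataaaagcaagtga

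The Cd177 window held the TATA box TATAAA, starting 40 bases before the start site, and the ETS core GGAAG. The Cd38 window held GGAAG at 2 places and no TATA box. The TATA box was present in 12.4% and GGAAG in 64.1% of 32851 promoter windows of the same length, so the shared motif is one that most promoters hold. Neither window held the AP-1 motif TGANTCA, nor the E-box motif CACGTG, nor the GC box with its letters GGGCGG. The same holds for the CCAAT box, read by the letters in its name, and for the TEAD motif, spelled CATTCC. It holds too for the STAT motif, spelled TTCNNNGAA, and the C/EBP motif, spelled TTGCNNAA, as well as for the NF-kB motif. Of all windows, 6.75% held the AP-1 motif, 6.02% the E-box, 32.7% the GC box, 33.8% the CCAAT box, 12.6% the TEAD motif, 7.02% the STAT motif, 9.56% the C/EBP motif and 4.65% the NF-kB motif. The matches that were found did not overlap. The Cd38 window held 1 CpG and the Cd177 window 4, against a median of 6 over all windows.

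Of 42012 barcodes, 32698 passed the filters on quality, and 29580 were kept as alveolar epithelium after clusters of immune-like, endothelial-like, ciliated-like and mesenchymal-like cells had been set aside. The cells set aside made up 42.2% of those that passed in 2 weeks YFP replicate 2, 21.4% in 2 weeks RFP replicate 2, 17.6% in 4 days RFP replicate 2 and 11.7% in 4 days YFP replicate 1, against 3.18% to 5.58% in the other libraries. AT2 markers scored above their mean over all clusters (a score above 0) in 9 of 11 alveolar clusters. In the cluster led by S100a6, Clu and Krt7 (2242 cells) and the cluster led by Clu, Spp1 and Gzme (407 cells), the AT2 scores were below 0 and the best list was that of damage-associated transient progenitors (DATP). With all UMIs, Sftpc was present in 99.9% of cells without a Cd177 UMI in 2 weeks RFP replicate 1, in 96.3% in replicate 2 and in 79.8% in 4 days RFP replicate 2. Alveolar cells had median depths of 3251 to 15815 UMIs, with the highest in the 2 weeks RFP libraries. Shares of cells with a UMI were therefore compared after each cell had been thinned to the same number of UMIs. No pair of libraries shared more than 17 barcodes. By sex-linked transcripts the Confetti cells were all female and the replicate 2 libraries of Red2Kras almost all male, while replicate 1 was 82.1% (RFP) and 83.4% (YFP) female at 4 days and 35.2% and 26.5% at 2 weeks. Red2Kras against Confetti therefore also compares lines, which cannot be told apart, and differs in part in sex. Replicates and time points differ in sex too, and its part in the results was not tested.

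Levels of both members were highest in RFP+ cells at 2 weeks. Levels are UMIs summed over the alveolar cells of a library, as TMM-scaled CPM, the level of a gene relative to all UMIs of the library. For Cd177 they were 27.2 and 49.1 CPM in 2 weeks RFP replicates 1 and 2, 0.377 and 8.50 CPM in 2 weeks YFP, 1.62 and 1.97 CPM in 4 days RFP, and 0 in both 4 days YFP and both Confetti libraries. A count of 0 puts the limit at 0.181 and 0.197 CPM for the Confetti libraries (RFP, YFP) and at 0.282 and 0.175 CPM for 4 days YFP (3 counts per library, counting error only). The 2 weeks RFP libraries lay above the other 8, while 4 days RFP fell between the values of the 2 weeks YFP libraries, so those groups did not differ beyond their spread.

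For Cd38 the levels were 23.7 and 52.4 CPM in 2 weeks RFP, 2.75 and 9.78 CPM in 2 weeks YFP, 4.50 and 6.38 CPM in 4 days RFP, 0.941 and 1.93 CPM in 4 days YFP, and 1.09 (RFP) and 0.917 (YFP) CPM in Confetti. The order of the groups was thus that of Cd177, with overlap between 2 weeks YFP and 4 days RFP and between 4 days YFP and Confetti. Within 2 weeks RFP and within 2 weeks YFP, replicate 2, almost all male, was higher than replicate 1, of both sexes, for both genes. In sums over cells, fewer cells with a transcript and less transcript per cell cannot be told apart, and shares of cells with a UMI depend on both as well.

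**Figure D1:**
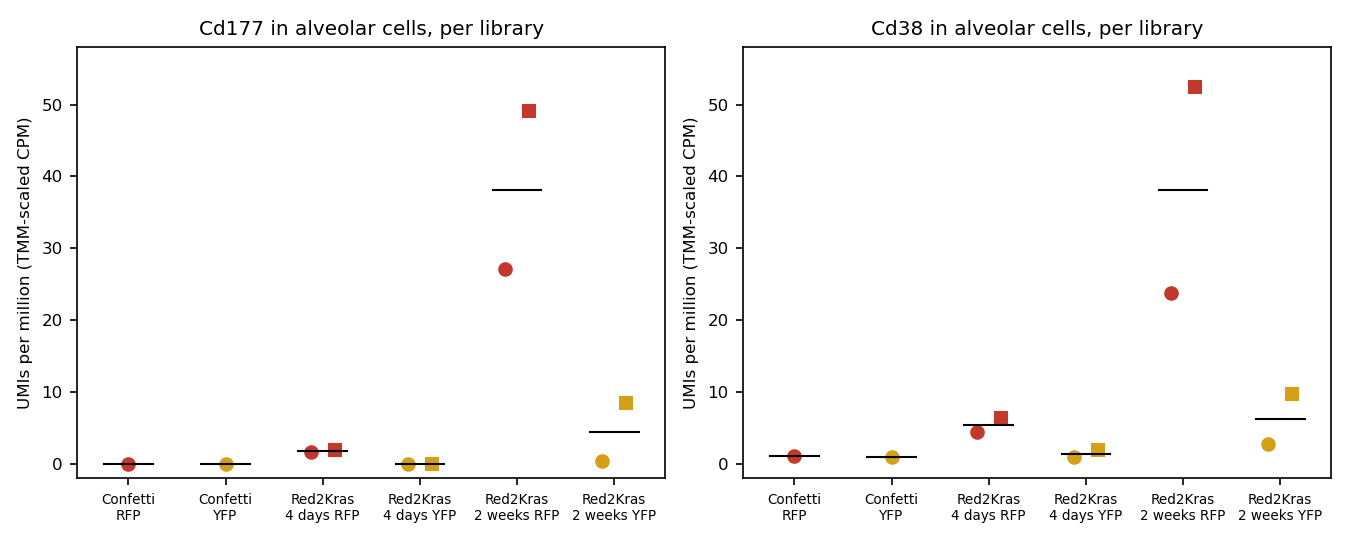
Levels of Cd177 (left) and Cd38 (right) in the 10 libraries, as TMM-scaled CPM of alveolar cells on a linear axis. Circles are replicate 1 (and the single Confetti libraries), squares are replicate 2, red is RFP, yellow is YFP, and lines are group means. Both genes are highest in the 2 weeks RFP libraries, and 2 weeks YFP replicate 2 lies above 2 weeks YFP replicate 1 in each panel.

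The first comparison asks how mutant cells at 2 weeks differ from wildtype cells of lungs without mutant cells. Both members were higher in 2 weeks RFP than in Confetti. The study's methods list 1 Confetti sample, and each colour of it has 1 library. No Confetti group has a replicate, so the spread in this fit comes from the Red2Kras groups. The mean of 38.1 CPM ± 15.5 (SD, n = 2) for Cd177 was at least 404.5-fold higher than Confetti, taking 3 counts over both Confetti libraries as the floor (adjusted p = 0.0417, edgeR quasi-likelihood test). For Cd38 the mean of 38.1 CPM ± 20.2 (SD, n = 2) was 38.0-fold higher, with 5.24 as its fitted log2 difference (SE 0.741) and 0.0331 as its adjusted p. Without 2 weeks RFP replicate 2 the Cd38 mean was 23.7-fold higher, and against Confetti RFP or Confetti YFP alone the Cd177 bound was 210.5-fold or 194.02-fold. Of all genes tested, 5.32% were called in this comparison and 3.41% were called higher. The Cd177 call was lost without 2 weeks RFP replicate 1 (adjusted p = 0.0545), 2 weeks RFP replicate 2 (0.186), 4 days YFP replicate 1 (0.0528) or 4 days YFP replicate 2 (0.0535), and the Cd38 call without 2 weeks RFP replicate 2 (0.150) or 4 days YFP replicate 2 (0.0501). Both were lost with the discarded cell types included (adjusted p = 0.144 for each), where the fitted difference of Cd38 was 3.78 in place of 5.24 and that of Cd177 was 6.75.

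Markers of other cell types moved with this comparison in alveolar cells. The summed 11 neutrophil markers were at 58.3 and 43.8 CPM in 2 weeks RFP and at 5.31 and 10.9 CPM in Confetti, where Ly6g, Ngp and Mpo were at 0 in both libraries. In 2 weeks RFP replicate 2, Ly6g, Camp, Ngp, Elane and Mpo were at 0. The gene Retnlg carried most of the neutrophil sum in thinned 2 weeks RFP cells with neither member. It was at 43.0 of 44.8 CPM in replicate 1 and 24.4 of 34.3 CPM in replicate 2. All 4 neutrophil genes tested had positive differences (median log2 1.97, against 0.03 over all genes), with 0 called. The summed 14 immune markers were at 83.9 and 74.2 CPM in 2 weeks RFP and at 67.9 and 68.7 CPM in Confetti, and 8 of 10 tested had positive differences (median 1.22), with 0 called. The summed 10 ciliated markers were at 39.5 and 33.3 CPM in 2 weeks RFP and at 139.4 and 133.1 CPM in Confetti (1 of 7 tested called lower, 3 of 7 positive, median -0.63), and the summed 8 airway secretory markers at 160.4 and 81.7 against 1957 and 1295 CPM (1 of 5 called lower, 1 of 5 positive, median -1.05). The part of these cell types in the result was not tested.

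A further comparison sets mutant cells against wildtype neighbours. At 2 weeks the fitted log2 difference of RFP against YFP was 3.29 (SE 1.11) for Cd177 and 2.69 (SE 0.646) for Cd38, with adjusted p of 0.246 and 0.194, and 0% of genes were called (edgeR; 2252 genes were at an unadjusted p under 0.05, and DESeq2 called 460). DESeq2 gave Cd38 an adjusted p of 0.00230 and Cd177 one of 0.419. Without 2 weeks YFP replicate 2, the fitted log2 difference was 6.64 for Cd177 and 3.79 for Cd38, and without 2 weeks YFP replicate 1 it was 2.15 and 1.94. The ratio of the means was 8.60 for Cd177 and 6.07 for Cd38, 101.1 and 13.8 without YFP replicate 2, and 4.49 and 3.89 without YFP replicate 1. Without 2 weeks RFP replicate 2 the Cd38 ratio was 3.79. At 2 weeks neutrophil markers summed to 58.3 and 43.8 CPM in RFP and to 26.9 and 34.3 CPM in YFP. Ciliated markers summed to 39.5 and 33.3 against 93.6 and 106.8 CPM, and airway secretory markers to 160.4 and 81.7 against 301.8 and 967.1 CPM. Endothelial markers summed to 21.7 and 15.9 against 38.7 and 44.9 CPM. The part of these cell types in the result was not tested here either. At 4 days Cd177 was at least 16.6-fold higher in RFP (adjusted p = 0.834, 3 counts over both YFP libraries) and at least 10.2-fold or 6.36-fold higher without YFP replicate 1 or 2. Cd38 was 3.79-fold higher (adjusted p = 0.840) and 5.78-fold higher without YFP replicate 2. With the discarded cell types included the fitted log2 differences at 4 days were 0.96 for Cd177 and 0.71 for Cd38, the latter in place of 1.86 (adjusted p = 1 for each). In alveolar cells 0% of genes were called at 4 days (779 at an unadjusted p under 0.05, 100 by DESeq2). The 4 neutrophil genes tested were positive at 4 days (median log2 1.03), with sums of 7.08 and 52.6 CPM in RFP and 10.2 and 32.4 CPM in YFP. Airway secretory markers summed to 371.7 and 94.9 CPM in RFP and to 660.4 and 737.1 CPM in YFP (1 of 5 positive). The differences at 2 weeks and at 4 days were not shown to differ from each other (adjusted p = 0.9999 for each gene, 0% called, 212 genes at an unadjusted p under 0.05, 0 by DESeq2).

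Over both times together, 4 RFP against 4 YFP libraries, the fitted log2 difference was 3.68 (SE 0.905) for Cd177 and 2.30 (SE 0.467) for Cd38. The adjusted p values were 0.0877 and 0.0827, and 0% of 13210 genes were called (2858 at an unadjusted p under 0.05, 1288 by DESeq2). With the replicate number as a block, Cd177 and Cd38 were called, at adjusted p of 0.0317 and 0.0185 (921 genes called). This block gives same-numbered libraries of both times a shared effect, although across times their deviations correlated at only 0.0161 to 0.256. With pairs of same-numbered RFP and YFP libraries within a time point as the block, the adjusted p was 0.00654 and 0.00154 (2244 genes called). Cd177 was also called without 4 days RFP replicate 1 (adjusted p = 0.0456) or 2 weeks YFP replicate 2 (0.0112), and Cd38 without 4 days RFP replicate 1 (0.0202). How many of all genes were called with these libraries left out is not given here. These calls are therefore not read as particular to the members.

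Between the time points, RFP cells held 21.2-fold more Cd177 and 6.996-fold more Cd38 at 2 weeks than at 4 days, by group means. Without 2 weeks RFP replicate 2 the Cd38 ratio was 4.36. Neither passed (log2 4.42 and 2.82, adjusted p = 0.411 each), and 0% of genes were called (1530 at an unadjusted p under 0.05, 113 by DESeq2). Wildtype neighbours at 2 weeks were compared with Confetti as well. Cd177 was at least 47.1-fold higher and Cd38 6.25-fold higher, at an adjusted p of 0.765 for each, and 0.0435% of genes were called. The Cd177 bound takes the floor over both Confetti libraries, 0.0943 CPM. It is lower with the floor of Confetti RFP (0.181 CPM) or Confetti YFP (0.197 CPM) alone. Without 2 weeks YFP replicate 2 the Cd177 bound was 4.00-fold and the Cd38 ratio 2.75, with the fitted Cd38 log2 difference at 1.45 in place of 2.56. Without replicate 1 they were 90.1-fold and 9.76. The neutrophil markers summed to 26.9 and 34.3 CPM in 2 weeks YFP (3 of 4 tested positive, median log2 2.58) and the immune markers to 62.4 and 62.7 CPM (8 of 10 positive, median 1.45), beside the Confetti sums given above. Ciliated markers summed to 93.6 and 106.8 CPM (2 of 7 positive) and airway secretory markers to 301.8 and 967.1 CPM (1 of 5 positive). Endothelial markers summed to 38.7 and 44.9 CPM, against 22.6 (RFP) and 20.1 (YFP) CPM in Confetti (3 of 6 positive, median log2 -0.07). None of these genes was called, and their part in the result was not tested.

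Single cells showed how many cells carried the transcripts. At 2000 UMIs per cell, Cd177 was present in 2.69% (exact Clopper-Pearson 95% interval 2.21 to 3.24) and 4.87% (4.10 to 5.74) of alveolar cells in the 2 weeks RFP libraries. In 2 weeks YFP the shares were 0.0237% (1 of 4223 cells) and 0.694% (7 of 1009 cells), and in 4 days RFP they were 0.108% and 0.140%. No cell of the other 4 libraries held a Cd177 UMI, so the upper limits on cells with a UMI at this depth, at 3 counts of the cells, are 0.0789% and 0.0762% for the Confetti libraries (RFP, YFP) and 0.178% and 0.102% for 4 days YFP. Intervals and floors cover counting error only.

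Cd38 was present at the same depth in 3.85% (3.28 to 4.49) and 7.58% (6.62 to 8.62) of cells in 2 weeks RFP. The shares were 0.308% and 1.09% in 2 weeks YFP, 0.458% and 1.12% in 4 days RFP, 0.211% (RFP) and 0.279% (YFP) in Confetti, and 0.118% and 0.409% in 4 days YFP. At this depth 18 of the alveolar cells were too shallow and were left out. With all UMIs, the 2 weeks RFP libraries held Cd177 in 7.62% and 11.9% and Cd38 in 19.9% and 29.9% of cells.

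Averaged over 4 RFP libraries, 1.95% ± 2.29 of cells held Cd177, against 0.179% ± 0.343 over 4 YFP libraries (SD, n = 4 each). The difference of 1.77 percentage points had a two-sided exact permutation p of 0.171, and RFP was higher in 14 of 16 combinations of an RFP with a YFP library. For Cd38, 3.25% ± 3.24 against 0.481% ± 0.423 differed by 2.77 points (exact permutation p = 0.0571, 15 of 16 combinations, n = 4 each). The smallest p that 4 against 4 allows is 0.0286. This test uses neither the time point nor the pairing of RFP with YFP libraries from the same lungs. Each mean takes in libraries of 4 days and of 2 weeks. The SD and the permutation p therefore also hold the difference between the times, and not only the spread of replicates. Within same-numbered libraries of a time point RFP was higher in 4 of 4 pairs for each gene, by 0.108 to 4.18 points for Cd177 and by 0.339 to 6.49 points for Cd38. Without 2 weeks RFP replicate 2 the differences were 0.8003 and 1.33 points, and without 2 weeks YFP replicate 2 the RFP libraries were higher in 12 of 12 combinations for each gene (exact p = 0.0571, the smallest that 4 against 3 allows).

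**Figure D2:**
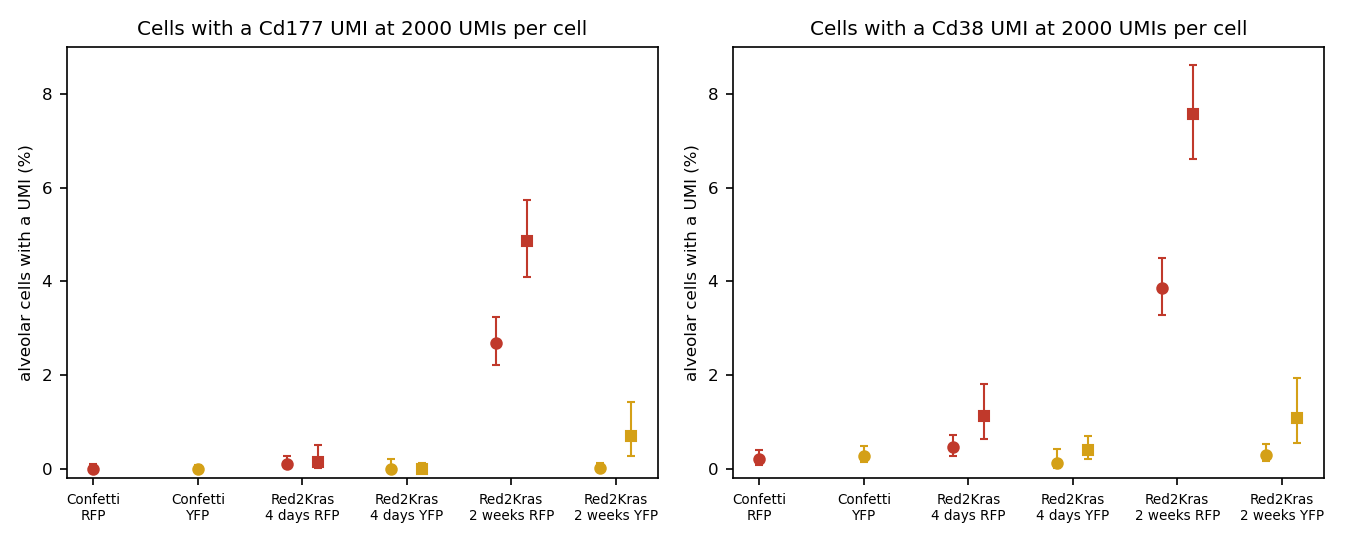
Percentage of alveolar cells with a Cd177 UMI (left) or a Cd38 UMI (right) after thinning each cell to 2000 UMIs. Bars are exact 95% binomial intervals, circles are replicate 1 and the single Confetti libraries, squares are replicate 2, red is RFP and yellow is YFP. The 2 weeks RFP libraries hold the highest shares for both genes, 2.69% and 4.87% for Cd177 and 3.85% and 7.58% for Cd38.

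The cells set aside show where else these genes were found. With all UMIs, Cd177 was present in 14.0% of 264 ciliated-like cells (median 5802 UMIs), in 0.744% of 2420 immune-like cells (median 7071 UMIs), in 0.293% of 341 endothelial-like cells (median 3730 UMIs) and in none of 93 mesenchymal-like cells. Ciliated-like cells held Cd177 in every library, Confetti included (6.06% and 10.2%). Cd38 was present in 28.2% of endothelial-like cells, 3.76% of immune-like cells and 0.758% of ciliated-like cells. Both genes were thus common in a discarded cell type, but not in the same one. In Confetti, Cd177 was in 2 of 33 and 6 of 59 ciliated-like cells and in none of 3801 and 3944 alveolar cells.

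In the 2 weeks RFP libraries the members were found together. At 5000 UMIs per cell, replicate 1 kept 3795 cells, of which 77 held both transcripts, 106 Cd177 alone, 253 Cd38 alone and 3359 neither. Cd38 was present in 42.1% (34.8 to 49.6) of cells with Cd177 and in 7.004% (6.19 to 7.89) of cells without, an odds ratio of 9.64. Replicate 2 kept 2536 cells, with 108, 98, 306 and 2024 cells in the same order. There Cd38 was present in 52.4% (45.4 to 59.4) of cells with Cd177 and in 13.1% (11.8 to 14.6) without, an odds ratio of 7.29. Cells with both were 4.84 and 3.21 times as many as the product of the separate shares. Seen from Cd38, 23.3% and 26.1% of its cells held Cd177. These figures describe cells of 2 libraries and carry no test, since cells are not replicates.

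The odds ratio stayed above 6 in both libraries at 2000 UMIs (10.9 and 6.11), at 10000 UMIs (10.1 and 7.30), with all UMIs (9.78 and 11.5), without cells of the highest doublet scores (9.60 and 7.39) and without the tenth of cells with the most UMIs (9.40 and 6.79). When at least 2 UMIs were asked of each gene it was 24.0 and 13.9. Cells with both transcripts came from droplets of greater original depth, with medians of 21816 and 17847 UMIs against 15918 and 13490.5 in cells with neither. Doublet calls made up 3.90% and 0% of the cells with both and 3.36% and 2.37% of those with neither.

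Both members were found together in the other libraries where Cd177 was present, although cells were few and those with Cd177 were deeper, with medians of 8751 to 13300 UMIs against 4726 to 6674.5 in cells without. With all UMIs, 4 of 8 cells with Cd177 in 4 days RFP replicate 1 held Cd38, against 1.43% of the other cells, and 3 of 7 in replicate 2, against 3.09%. In 2 weeks YFP it was 3 of 5 cells in replicate 1, against 1.16%, and 12 of 13 cells in replicate 2, against 1.91%. Of the 13 cells in 2 weeks YFP replicate 2, 10 lay in the cluster led by Meg3 and Trf, which held 3.17% of the cells of that library. Among these 13 cells 12 held Trf, 11 Meg3 and 13 Sftpc, against 45.5%, 3.21% and 98.6% of the other cells.

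**Figure D3:**
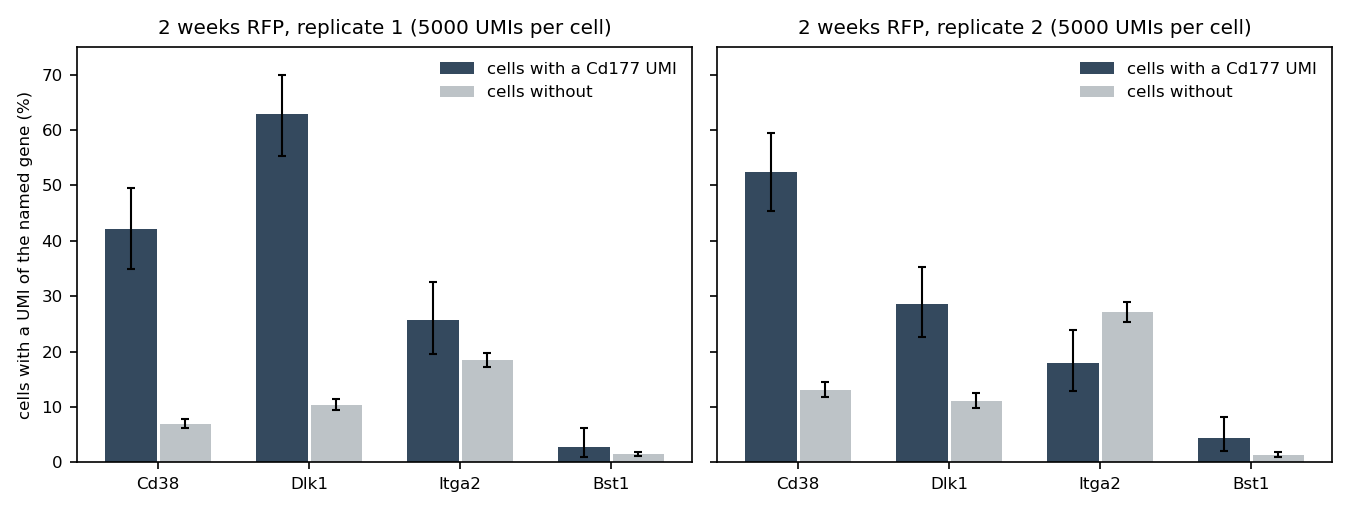
Percentage of cells with a UMI of Cd38, Dlk1, Itga2 or Bst1 among alveolar cells with (dark) and without (light) a Cd177 UMI, at 5000 UMIs per cell, in 2 weeks RFP replicate 1 (left) and replicate 2 (right). Bars start at 0 and whiskers are exact 95% binomial intervals. Cd38 is more frequent in cells with Cd177 in both libraries (42.1% against 7.004%, 52.4% against 13.1%), whereas at this depth Itga2 is higher in replicate 1 and lower in replicate 2, which turns with all UMIs.

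The clusters were made from many genes, the members possibly among them, so the shares per cluster are a description. In replicate 1, cells with Cd177 (all UMIs) were spread over the cluster led by Hspa1b, Lcn2, Lrg1 and Cxcl15 (39.5% of them), the cluster led by Clu, Spp1 and Gzme (26.5%), the cycling cluster led by Stmn1 (18.8%) and the cluster led by Meg3 and Trf (11.3%). Of all cells of replicate 1, the Hspa1b, Lcn2, Lrg1 and Cxcl15 cluster held 37.8%, the Clu, Spp1 and Gzme cluster 9.35% and the cycling cluster 19.3%. In replicate 2, 81.8% of cells with Cd177 lay in the cluster led by Meg3 and Trf. The Meg3 and Trf cluster held 4.54% of all alveolar cells in replicate 1 and 50.3% in replicate 2. The cluster led by S100a6, Clu and Krt7 held 13.3% and 39.4% of all cells, but 1.62% and 6.36% of those with Cd177. A cluster led by Hspa1b, Lcn2, Lrg1 and Hspb1 held 7.05% of all cells of replicate 1 and 0.647% of those with Cd177. Co-detection was also present inside clusters. At 5000 UMIs the odds ratio in the Meg3 and Trf cluster was 4.86 and 4.92, in the Spp1 and Gzme cluster of replicate 1 it was 6.22, and pooled within clusters (Mantel-Haenszel) it was 6.19 and 4.83. In the Hspa1b, Lcn2, Lrg1 and Cxcl15 cluster it was 5.82 in replicate 1 and 1.64 in replicate 2, where it rests on 2 cells with both.

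ITGA2, an integrin subunit, is the surface protein that the study paired with CD177. At 5000 UMIs per cell its transcript was more frequent in cells with the members in 1 library and less frequent in the other. In replicate 1, Itga2 was present in 25.7% (19.5 to 32.6) of cells with Cd177 and 18.4% (17.2 to 19.7) without, and in 26.1% of cells with Cd38 and 18.1% without. In replicate 2 it was present in 18.0% (13.0 to 23.9) with Cd177 and 27.2% (25.4 to 29.0) without, and in 16.2% with Cd38 and 28.4% without. The odds ratios with Cd177 were 1.53 and 0.587. With all UMIs, where cells with Cd177 were deeper, Itga2 was in 42.4% of cells with Cd177 and 25.2% without in replicate 1, and in 43.3% and 35.0% in replicate 2, so the direction in replicate 2 turned with the depth used.

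To find the genes that go with the members, the Pearson correlation over cells of ln(1 + UMIs) was taken at 5000 UMIs per cell for 6478 genes present in at least 5% of cells in both 2 weeks RFP libraries, and genes were ranked by the lower of their 2 values. The members correlated with each other at 0.311 and 0.352, and for each of them 1 gene, Trf, ranked higher than the other member. Over all these genes the medians ranged from -0.00566 to 0.000746, while 52 genes were above 0.1 in both libraries for Cd177 and 50 for Cd38. Of the 12 genes most like each member, 10 were shared. The highest genes of 1 library were then read in the other, which had no part in that ranking. The 25 highest for Cd177 in replicate 1 had a median of 0.182 in replicate 2, and those of replicate 2 had a median of 0.176 in replicate 1. For Cd38 these medians were 0.158 and 0.119, and 1 of the 25 from replicate 2 lay below the median of all genes in replicate 1 (lowest value -0.0307). The points share a library and a depth, and no p is given.

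Trf encodes transferrin, the iron carrier of plasma, and had correlations of 0.407 and 0.359 with Cd177 and of 0.312 and 0.384 with Cd38. The next 3 genes by likeness to Cd177 were Pglyrp1, a peptidoglycan recognition protein (0.286 and 0.311), Ctsd, a lysosomal aspartic protease (0.266 and 0.345), and Pf4, a chemokine best known from platelets (0.296 and 0.261). Both the imprinted noncoding RNA Meg3 (0.347 and 0.228) and Dlk1, the membrane protein gene of the same imprinted domain (0.502 and 0.179), were also among the 12. Dlk1 had the highest value of any named gene in replicate 1 and fell well below Trf in replicate 2. In replicate 1 it was present in 62.8% of cells with Cd177 and in 10.4% of those without, and in replicate 2 in 28.6% and 11.1%.

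Others among the 12 genes most like Cd177 were Tmem213, the proteoglycan gene Bgn, the phosphatase gene Ptpn18, the glutathione transferase gene Gsta4 and the kininogen gene Kng2, with values from 0.1796 to 0.294 over both libraries. The 12 genes most like Cd38 did not hold Tmem213, and held Ctsh, a cysteine protease that takes part in processing surfactant protein (0.171 and 0.197), and Fbp2, a fructose bisphosphatase (0.163 and 0.211). The lists were not exact. Under each of 5 other settings, 9 to 11 of the 12 for Cd177 and 8 to 12 of the 12 for Cd38 stayed among the 12 highest, and all 12 stayed above 0.

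Few genes went against the members, 5 below -0.1 in both libraries for Cd177 and 9 for Cd38. Ranked by the higher of the 2 values, S100g, a calcium-binding protein, was the lowest for both (-0.163 and -0.134 with Cd177). Nupr1, a stress-response gene, and S100a10, the partner of annexin A2, were also among the 5 lowest of each. The complement gene Hc and the aminotransferase gene Oat completed the list for Cd177, and Bri3 and the initiation factor gene Eif1 that for Cd38.

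**Figure D4:**
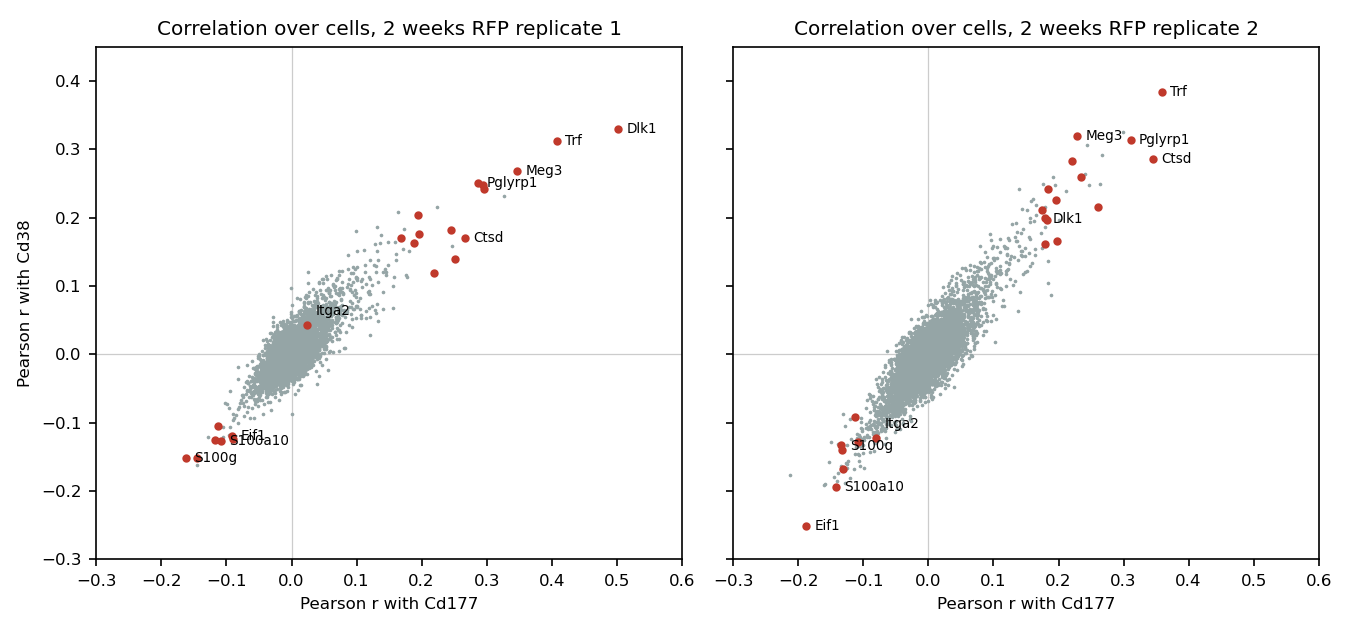
Pearson correlation over cells with Cd177 (horizontal) and with Cd38 (vertical) for 6478 genes in 2 weeks RFP replicate 1 (left) and replicate 2 (right), at 5000 UMIs per cell. Red points are the genes named by the ranking and Itga2, of which some are labelled. Genes lie along a common diagonal, Trf is high in both panels, and Dlk1 is farther out in replicate 1 than in replicate 2.

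Levels in the 4 kinds of cell follow the same genes. Trf, Dlk1 and S100g were chosen by their correlations with the members over these same cells. Their order here therefore follows in large part from that choice and is a description, with no test. Levels are shares of the thinned UMIs, as CPM, in the order neither, Cd38 alone, Cd177 alone and both. Trf was at 459.8, 2275, 4057 and 7636 CPM in replicate 1 and at 724.9, 2295, 3322 and 3937 CPM in replicate 2. It was lowest in cells with neither transcript and highest in cells with both in each library, with Cd177 alone above Cd38 alone. Dlk1 was at 131.1, 887.7, 2804 and 3834 CPM in replicate 1 and at 156.9, 648.4, 940.8 and 1093 CPM in replicate 2, in the same order. S100g took the opposite order, from 1146 CPM in cells with neither to 179.2 CPM in cells with both in replicate 1, and from 598.7 to 88.9 CPM in replicate 2.

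**Figure D5:**
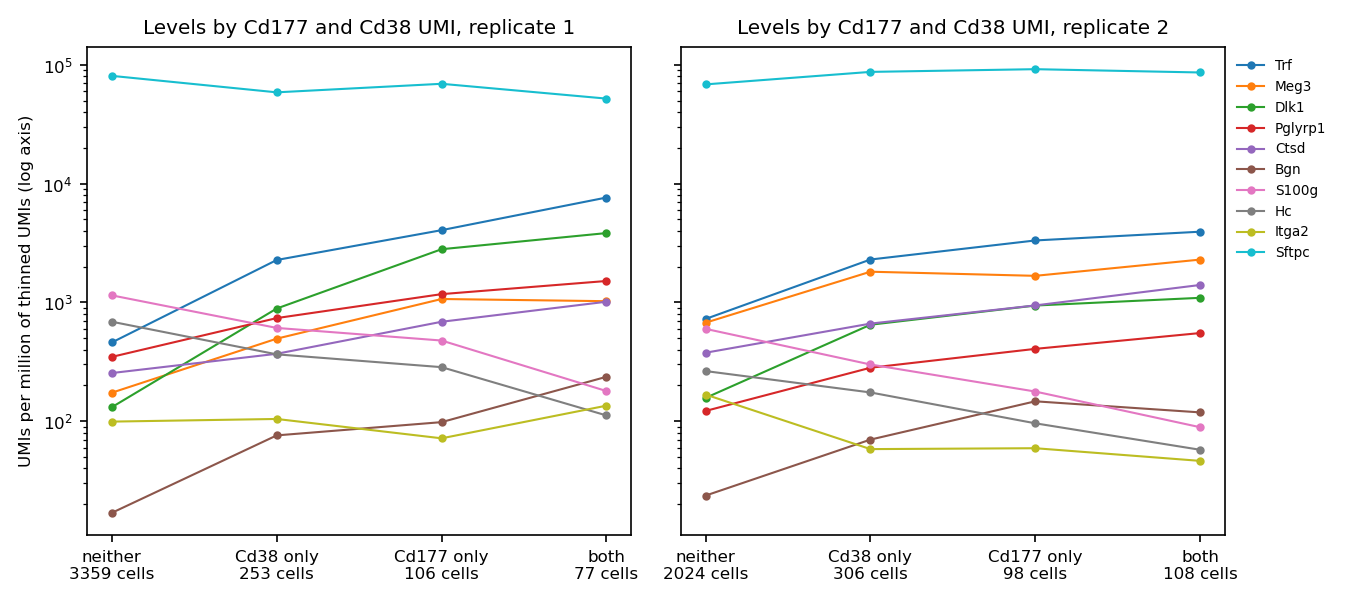
Levels of 10 genes, as CPM of the thinned UMIs on a log axis, in alveolar cells of 2 weeks RFP with neither transcript, Cd38 alone, Cd177 alone or both, for replicate 1 (left) and replicate 2 (right). Each line joins the 4 values of 1 gene, and the number of cells is under each kind. Trf and Dlk1 are lowest in cells with neither and S100g is highest there, which follows in large part from how these genes were chosen. Itga2 is highest in cells with both in replicate 1 (135.1) and lowest there in replicate 2 (46.3).

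Alveolar markers gave a picture that differed between the libraries. The AT2 list, which holds surfactant genes, had median correlations with Cd177 and Cd38 of 0.00928 and 0.000860 in replicate 1 and of 0.136 and 0.179 in replicate 2 (12 of 12 genes compared). Its genes above 0.1 with Cd177 in both libraries were Sftpb (0.120 and 0.173) and Chil1 (0.132 and 0.160). Of the primed AT2 list, 6 of 8 genes were compared with Cd177, of which 5 were positive and 1 negative in both libraries, with medians of 0.0527 and 0.121. Lcn2, a secreted iron-siderophore binder, was above 0.1 with both members in both libraries (0.176 and 0.268 with Cd177, 0.116 and 0.292 with Cd38), and Orm1 with Cd177 alone (0.140 and 0.144). Lrg1 stayed below 0.1 in replicate 1 (0.0791 and 0.192). Il33 was at 534.03 CPM in cells with neither member and 259.7 CPM in cells with both in replicate 1, and at 284.8 and 268.5 CPM in replicate 2. Of the AT1 list, 8 of 12 genes were compared with Cd177, of which 2 were positive and 4 negative in both libraries (medians -0.0182 and -0.0616). The podoplanin gene Pdpn was positive (0.132 and 0.0945 with Cd177) and Cldn18 and Emp2 negative (-0.0591 and -0.212, -0.0755 and -0.161). Of 13 DATP genes none was positive with either member in both libraries, and the medians with Cd177 were 0.0235 and -0.0550. Summed lists went opposite ways in the libraries. From cells with neither member to cells with both, DATP sums went from 10181 to 12067.5 CPM in replicate 1 and from 16195 to 6496 CPM in replicate 2. AT2 sums went from 140262 to 102400 CPM and from 102020 to 134015 CPM. Of the cycling list, 5 of 8 genes were compared and none passed 0.1 with either member in both libraries.

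Most markers of neutrophils, from which CD177 is best known, were at or near 0 in alveolar cells of 2 weeks RFP replicate 1. There, 9 of the 11 genes of the list, S100a8, S100a9 and Ly6g among them, had no UMI in the 77 thinned cells with both, but these 9 were also at 0 to 0.357 CPM in cells with neither. In replicate 2, 7 of 11 had none in the 108 cells with both. The others in replicate 1 were Cxcr2, at 0.774 CPM in cells with neither and 5.19 CPM in cells with both, and Retnlg, at 43.0 CPM in cells with neither and 210.4 CPM in cells with both (24.4 and 63.0 CPM in replicate 2). The summed neutrophil list was at 44.8 and 215.6 CPM in replicate 1 and at 34.3 and 70.4 CPM in replicate 2. In replicate 2, S100a8 and S100a9 reached 24.5 and 44.9 CPM in cells with Cd177 alone, from 12 and 22 UMIs in 1.02% and 3.06% of 98 cells, and 1.85 CPM each in cells with both. Ptprc, the general marker of immune cells, was at 0.357 and 0.889 CPM in cells with neither and had no UMI in cells with both, which are too few to show a level that low. Summed immune markers were at 79.5 CPM in cells with neither and 127.3 CPM in cells with both in replicate 1, and at 70.5 and 107.4 CPM in replicate 2. Lcp1, an actin-bundling protein of leukocytes, carried most of these sums, with 65.1 and 101.3 CPM in replicate 1 and 50.5 and 100 CPM in replicate 2. The part of stray RNA in these values was not tested.

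Partners of CD177 were near 0 in alveolar cells. Over the 10 libraries Prtn3 ranged from 0 to 0.708 CPM, Itgam from 0 to 0.232 CPM, Itgb2 from 0 to 0.440 CPM and Pecam1 from 0.423 to 3.62 CPM, and Prtn3 and Pecam1, tested in 2 weeks RFP against Confetti, did not pass (adjusted p = 0.332 and 0.274). In the Ly6 and uPAR family, 3 of 18 genes tested were higher in that comparison and none lower, beside 3.41% higher and 1.91% lower of all genes, with a median log2 difference of 0.35 over the list and 0.03 over all genes. They were Plaur, the urokinase receptor (7.02, SE 1.43, adjusted p = 0.0442), Ly6a (4.12, SE 0.876, adjusted p = 0.0442) and Ly6g6c (1.75, SE 0.392, adjusted p = 0.0458). Plaur was at 132.4 and 174.5 CPM in 2 weeks RFP and 0.725 and 1.90 CPM in Confetti. In single cells at 5000 UMIs, the correlation of Plaur with Cd177 was 0.00553 and 0.00387, while Plaur was present in 31.1% of cells with Cd177 and 23.3% without in replicate 1 and in 37.9% and 30.4% in replicate 2. Ly6d correlated at 0.224 and 0.137 and was present in 40.98% against 13.8% and in 21.8% against 8.15%.

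Genes around CD38 were tested in the same way. Of genes that consume NAD or act outside the cell on it, 2 of 9 tested were higher in 2 weeks RFP than in Confetti (3.41% of all genes), with a list median of 0.53. They were Bst1, at 4.19 and 3.86 CPM in 2 weeks RFP against 0.181 and 0.197 CPM in Confetti (log2 4.38, SE 0.859, adjusted p = 0.0423), and Nt5e, the ectonucleotidase CD73, at 30.7 and 59.4 CPM against 0.121 and 0.0655 CPM, which rest on 1 or 2 UMIs a library (adjusted p = 0.0442). The Confetti levels of Bst1 equal 3 counts a library, the floor used here. None of 8 genes of NAD synthesis tested passed, with a median of -0.32, and Nampt, the rate-limiting enzyme of NAD salvage, was at 29.9 and 27.3 CPM in 2 weeks RFP and 36.8 and 33.1 CPM in Confetti (adjusted p = 0.443). None of 3 cyclic ADP-ribose and NAADP channel genes tested passed, with a median of -0.62. In single cells Bst1 was in 2.73% of cells with Cd177 and 1.47% without in replicate 1 and in 4.37% and 1.33% in replicate 2. The intervals were 0.893 to 6.26 against 1.10 to 1.91 in replicate 1 and 2.02 to 8.13 against 0.906 to 1.88 in replicate 2, over cells of 1 library each and with no test. With Cd38 it was in 2.12% and 1.47%, and in 2.17% and 1.46%.

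Among 23 other surface marker genes, 21 could be compared with the members in single cells. Pdpn and Cd24a had the highest correlations with Cd177 in replicate 1 (0.132 and 0.120), with 0.0945 and 0.0288 in replicate 2. Of 22 tested in 2 weeks RFP against Confetti, 4 were higher and 1, Cd200, was lower, beside 3.41% and 1.91% of all genes, with a list median of 0.62. The higher ones were Pdpn, Procr, Epcam and Itga2.

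The 14 genes most like either member were chosen on cells of the 2 weeks RFP libraries, so their levels in those libraries are a description, with no test. Trf was at 851.5 and 1167 CPM in 2 weeks RFP and at 171.6 and 419.5 CPM in 2 weeks YFP, against 173.4 and 151.0 CPM in Confetti RFP and YFP. Meg3 was at 216.2 and 916.3 CPM in 2 weeks RFP, at 9.01 and 66.4 CPM in 2 weeks YFP and at 4.11 and 4.32 CPM in Confetti. Hc, which went against Cd177, was at 523.6 and 209.7 CPM in 2 weeks RFP and at 2024 and 2179 CPM in Confetti. Not all of them followed the members. Tmem213 was at 69.02 and 267.7 CPM in 2 weeks RFP and at 125.3 and 203.1 CPM in 2 weeks YFP, and Fbp2 at 19.01 and 93.2 against 1.70 and 21.2 CPM, so that the groups overlapped. As for the members, 2 weeks YFP replicate 2 lay above replicate 1 for Trf and Meg3.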

How the data were processed

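Cells of 10 libraries were analysed. The deposited values are raw UMI counts of each gene in each barcode, made by the authors with Cell Ranger (version 3.1.0 in the submitters' processing notes and the methods) against GRCm38. The matrix headers name another version, and the labels and methods name different chemistries. All cells were filtered (at least 1000 genes, at most 50000 UMIs, at most 15% mitochondrial UMIs) and clustered with scanpy 1.11.5 (5000 variable genes, 30 components, Louvain at resolution 0.8). Clusters led by markers of other cell types were set aside. Cluster names are leading genes. Doublets were kept, and removed only in an alternative (940 cells).

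For each library the UMIs of its alveolar cells were added up and tested over all genes with edgeR 4.0.16 (TMM, filterByExpr, quasi-likelihood test, Benjamini-Hochberg at 0.05, 13781 genes, 6 groups over 10 libraries, Confetti as the mean of both Confetti coefficients). The fit over both times used 8 libraries with time point as a term. CPM values are these sums relative to TMM-scaled totals. DESeq2 1.42.0 was an alternative. In the fit of 6 groups, leaving out 1 library of a Red2Kras group leaves 1 library in that group. The spread in such a fit then comes from the other Red2Kras groups. Per the methods, library preparation was spread over 2 days. Which library belongs to which day or sequencing batch is not given in the sources used here, so neither could be a term. Nothing says that replicates are separate litters, so p-values measure the spread between these pools of lungs. Cells were thinned to 2000 UMIs for shares and to 5000 UMIs for pairs of genes, and shallower cells were left out (259 and 238 in the 2 weeks RFP libraries at 5000 UMIs). The fits and the thinning were tested on simulated data or against expected values. The simulated counts had a fixed spread and large changes in well-detected genes. They check that the fit runs as meant, and not its power for the members.

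RFP+ and YFP+ cells come from the same Red2Kras lungs. Deviations of same-numbered RFP and YFP libraries from their group means correlated at 0.475 at 4 days and 0.550 at 2 weeks over 13781 genes, so the numbers were taken to pair RFP with YFP within a time point. Across time points the correlations were 0.0161 to 0.256.

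Genes named beside the members are the 12 with the highest and the 5 with the lowest likeness to each, and for gene lists the counts, the members with the strongest correlations, those that passed the test and genes that act on the members. Genes of the lists named for other reasons, such as Retnlg, Cxcr2, S100a8, S100a9, Ptprc, Ly6d, Cd24a, Nt5e, Il33 and Lcp1, were named after their values were seen. Some items named by these rules are not reported here. The members and lists were chosen with earlier results of these data known.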

Additional observations from a re-analysis of the deposited data

How the results depend on the processing

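Values here are adjusted p unless said otherwise. DESeq2 called Cd38 in 2 weeks RFP against 2 weeks YFP (0.00230) and against 4 days RFP (0.00207), but not Cd177 (0.419 and 0.331). It called Cd177 and Cd38 in 2 weeks YFP against Confetti (0.0403 and 0.0164) and over both times (0.00887 and 9.7e-05). How many of all genes DESeq2 called in 2 weeks YFP against Confetti is not given here. The same holds for the comparisons without the filter that follow, so these calls are not read as particular to the members. Without the filter on low counts, Cd177 and Cd38 were called in 2 weeks RFP against 2 weeks YFP (4.5e-13 and 2.7e-10), 4 days RFP against 4 days YFP (3.1e-12 and 0.000468), 2 weeks against 4 days RFP (1.7e-21 and 2.4e-11), 2 weeks YFP against Confetti (9.7e-18 and 2.3e-07) and over both times (1.9e-26 and 1.2e-15). The cause was not tested. With all cells that passed, fitted log2 differences of Cd177 and Cd38 over both times were 2.17 and 1.67 in place of 3.68 and 2.30, that of Cd38 in 2 weeks YFP against Confetti was 1.22 in place of 2.56, both lost the call in 2 weeks RFP against Confetti (0.144 each), and the fitted difference of differences of Cd177, which rests on libraries at 0, turned from -5.12 to 2.21 (adjusted p = 0.9998). The cause was not tested.

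The replicate block gave 0.0317 and 0.0185 over both times, and 0.00654 and 0.00154 with pairs within a time point, the latter chosen after seeing the data. The replicate block changed no other call of the members among the Red2Kras comparisons, and was not run for those against Confetti. Leaving out 1 library gave 0.00893 to 0.186 (Cd177) and 0.0154 to 0.150 (Cd38) in 2 weeks RFP against Confetti, and 0.0112 to 0.223 and 0.0202 to 0.223 over both times. In the other comparisons no omission changed a call. In 2 weeks RFP against Confetti 733 genes were called in all, 2207 by DESeq2, 3252 without the filter, 0 with all cells that passed, and 5 to 1918 with 1 library left out.

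The mean odds ratio of Cd177 and Cd38 was 8.47, 10.7 with all UMIs, 18.97 from 2 UMIs per gene, 5.51 within clusters (chosen after seeing the data), and 7.29 or 9.64 in 1 replicate alone. The shares kept their direction in all 24 alternatives run for RFP against YFP, of which 16 leave out 1 library and cannot give a p below 0.0571. Depth limits Cd177 in libraries with 0 UMIs, where only the limits given can be stated.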
